A study of Equus caballus with 6 samples.

Results

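GC-rich small RNAs are described here as they were counted in mature and immature testis of the Mongolian horse. A sequence was taken as GC-rich when G and C together made up at least 70% of its bases, whatever its length and first base. This rule found 13537 of 4936717 distinct sequences, or 0.274%, with 20764 of 17914237 reads, or 0.116%. The study sequenced small RNAs of 3 mature testes and 3 immature testes, in a library each, to follow piRNAs through testis development and spermatogenesis. The breed is the same in both groups, no treatment or genotype is named, and the labels leave the age of the animals open. The libraries are numbered as replicates without a statement that each came from a separate animal, so p-values measure only the spread between these libraries. The mature libraries held 4032042 to 4550970 reads and the immature libraries 1382083 to 2347351 reads, counting only the sequences of the deposited table. The table holds no genes, so the tissue label could not be checked against marker genes.

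piRNAs are small RNAs that bind PIWI proteins in germ cells and guide them to transposon and other transcripts. In mouse testis, shorter piRNAs are bound by PIWIL2 and longer ones by PIWIL1, which appears with meiosis. Most piRNAs begin with uridine, which the PIWI protein prefers at the 5′ end. When PIWI proteins cut each other's targets, in the ping-pong cycle, the partners overlap by their first 10 bases, and an adenine at position 10 faces the first uridine of the partner. The dinucleotide CG is rare in vertebrate genomes, because methylated cytosine mutates easily, and it is kept in CpG islands and in some young repeats. A GC-rich sequence can hold many CG dinucleotides or none, and the rule does not fix which.

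The sequences that lead the results are shown first, because they differ in how much CG they hold and in the group they belong to. They are written 5′ to 3′ as deposited, with T for U and with every CG dinucleotide in capitals. The 10 most abundant GC-rich sequences, by the mean of the 2 group means, were these:
uniq_327586: tctgggcttctctcCGggcctctgcCGgga
uniq_3693636: tcccatgaccCGcCGggcagcttcCGgga
uniq_4549835: tccttctgggcccaggaggCGgctgagagc
uniq_3749505: tgactgaacCGgCGcctCGCGatgggc
uniq_225208: tgggcttctctcCGggcctctgcCGgga
uniq_227990: tgcCGgagatctCGgagaggacCGgggc
uniq_3935091: tcccatgaccCGcCGggcagcttcCGgg
uniq_3612602: tgggcatgctggctggtcctccCGaCGc
uniq_8073271: tcCGgactctgcccacctCGtgggcc
uniq_4829796: tgcaccaggaCGtgaggctgggaCGgc
All 10 begin with uridine. The most abundant sequences with another first base are shown to complete the set:
uniq_2578235: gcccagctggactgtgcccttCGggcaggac
uniq_4596716: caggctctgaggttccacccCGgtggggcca
uniq_1245856: aaacactgggcCGcctgcagCGgagCG

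GC-rich sequences took a smaller share of the reads in mature testis. They made up 0.0906%, 0.0858% and 0.0876% of the reads in the mature libraries and 0.230%, 0.146% and 0.202% in the immature libraries. Each mature library lay below each immature one, and immature replicate 2 was the lowest of its group. The means were 0.0880% ± 0.00243 in mature testis against 0.193% ± 0.0424 in immature testis (SD, n = 3 each, exact two-sided permutation p = 0.1, the smallest that 3 against 3 libraries can give). The immature mean was 2.19 times the mature mean, and 1.98 to 2.45 times when any 1 library was left out. The libraries held 2956 to 3985 GC-rich reads each, and the 95% Wilson intervals of the shares reached no further than 0.00812 percentage points from them. A share of a bulk library cannot tell fewer cells of a type from less RNA per cell. In all, 12 measures of the GC-rich sequences were compared between the groups, and the smallest adjusted p over them (Benjamini-Hochberg, exact permutation tests) was 0.15.

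The ratio between the groups changed along the scale of GC content. Sequences under 30% GC made up 3.02% ± 0.104 of mature reads against 2.46% ± 0.198 of immature reads, and those of 40 to under 50% made up 43.9% ± 0.0989 and 38.5% ± 1.58 (SD, n = 3 each). From 50% GC on, the mature mean was the smaller one, although the groups overlapped between 60 and under 65% (exact permutation p = 0.3). In the band of 65 to under 70%, 69641 sequences made up 0.617% ± 0.0106 of mature reads against 1.16% ± 0.176 of immature reads, where the immature mean was 1.89 times the mature one. Between 70 and under 75% the immature mean was 2.13 times the mature mean, and between 75 and under 80% it was 2.95 times. At 80% and above, with 69 sequences and 75 reads in all, it was 6.22 times. GC-rich reads amounted to 0.143 ± 0.00304 of the reads of the 65 to under 70% band in mature testis and to 0.165 ± 0.0184 in immature testis (exact permutation p = 0.1). Just inside the limit, at 70 to under 71%, stood 6638 sequences with 0.0485% ± 0.000992 of mature reads against 0.0907% ± 0.0176 of immature reads. Just outside, at 69 to under 70%, 5341 sequences held 0.0237% ± 0.00124 and 0.0907% ± 0.0144 in the same order. Whole bases allow only sequences of 26 nt just outside, and only those of 27, 30 and 31 nt just inside. These sets therefore differ in length as well as in GC content.

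Most GC-rich sequences were seen a single time. Of the 13537, 11591 (85.6%) had 1 read in all libraries together, against 76.95% of the whole table. Only 152 reached 10 reads and 3 reached 100, and the largest number of reads over all libraries was 188. In mature testis 44.1% ± 0.322 of GC-rich reads were such single reads, and in immature testis 69.6% ± 2.49 (SD, n = 3 each). In the rest of the table the shares were 13.3% ± 0.930 and 41.2% ± 3.32, lower than among GC-rich reads in 6 of 6 libraries (exact two-sided sign-flip permutation p = 0.031, the smallest for 6 libraries). The difference between the groups lay largely in these single reads. They made up 0.0388% ± 0.000989 of the mature pool and 0.135% ± 0.0315 of the immature pool. GC-rich sequences with 2 or more reads made up 0.0492% ± 0.0015 and 0.0582% ± 0.012, and the groups overlapped (exact permutation p = 0.4). With the sequences of 1 read removed from the totals as well, the GC-rich shares were 0.0568% in mature testis against 0.0998% in immature testis (exact permutation p = 0.1). The immature libraries held fewer reads than the mature ones, and the part of depth in the share of single reads was not tested.

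Few GC-rich sequences were shared between the groups. Mature libraries alone held 5984 of them, immature libraries alone 7156, and 397 (2.93%) were found in both groups. Of all sequences, 6.26% were found in both. A sequence of 1 read in all cannot be found in both groups. Such sequences were 85.6% of the GC-rich sequences and 76.95% of the table, so these shares partly restate that difference. Among the GC-rich sequences, 19 occurred in all 6 libraries. With every library thinned by formula to the smallest total, 966 ± 22.6 distinct GC-rich sequences were expected in mature testis against 2279 ± 466 in immature testis (SD, n = 3 each, exact permutation p = 0.1). The same count was not made for the other sequences. These too were read more often each in mature testis, 3.74 ± 0.223 times against 1.67 ± 0.138 in immature testis, so the difference may not be particular to GC-rich sequences. At the deposited depth, GC-rich sequences made up 0.223% ± 0.0134 of the distinct sequences in mature testis against 0.270% ± 0.0446 in immature testis (exact permutation p = 0.2). Of the GC-rich sequences, 189 (1.40%) were found in all 3 mature and no immature library, where the background over the whole table was 2.96%. Another 59 (0.436%) were found in all 3 immature and no mature library, against a background of 0.816%. Both shares of members lay below that of the table, and sequences of 1 read cannot count toward either.

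As shares of all reads, short GC-rich sequences were lower in mature testis, whereas the shares of long ones overlapped. Set against all reads of the same length, the ratio between the groups was widest at 29 nt, as given below. GC-rich sequences of 25 to 28 nt made up 0.0391%, 0.0396% and 0.0389% of the mature libraries and 0.167%, 0.110% and 0.148% of the immature libraries. Their means were 0.0392% ± 0.000365 in mature testis against 0.142% ± 0.0291 in immature testis (SD, n = 3 each, exact permutation p = 0.1), with the immature mean 3.61 times the mature one. GC-rich sequences of 29 to 32 nt made up 0.0516%, 0.0463% and 0.0487% of the mature libraries and 0.0624%, 0.0364% and 0.0546% of the immature libraries. Here the groups overlapped, with means of 0.0488% ± 0.00265 and 0.0511% ± 0.0133 (exact permutation p = 0.8). Among GC-rich reads alone, 55.5% ± 1.5 were of 29 to 32 nt in mature testis against 26.4% ± 1.28 in immature testis, and the mean length was 28.8 nt ± 0.0599 and 27.7 nt ± 0.0347 (exact permutation p = 0.1 for each). In the rest of the table, reads of 29 to 32 nt made up 71.5% ± 0.958 and 36.2% ± 2.91 in the same order. At 65 to under 70% GC they made up 62.2% ± 1.08 and 35.8% ± 3.38, so the shift was not particular to GC-rich sequences. The length with the highest group mean was 27 nt in both groups, with 26.4% ± 1.62 of GC-rich reads in mature testis against 44.7% ± 1.26 in immature testis. In mature testis 30 nt followed with 24.3% ± 1.75, where immature testis had 11.1% ± 0.937. In mature replicate 1 the order of these lengths was the other one, with 26.0% of 30 nt and 24.7% of 27 nt.

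Lengths of GC-rich sequences cannot be compared with those of the other sequences directly, since the limit falls on whole bases. A sequence of 30 nt needs 21 bases of G or C, exactly 70%, and one of 27 nt needs 19, or 70.4%, but one of 26 nt needs 19, or 73.1%. The groups were therefore compared within each length. Of all 27 nt reads, 0.219% ± 0.00279 were GC-rich in mature testis against 0.323% ± 0.0469 in immature testis. At 29 nt the shares were 0.0420% ± 0.0022 and 0.146% ± 0.0378, where the immature mean was 3.47 times the mature mean, the widest ratio among the 8 lengths. At 30 nt they were 0.0858% ± 0.00821 and 0.253% ± 0.0735, a ratio of 2.95 (SD, n = 3 each, exact permutation p = 0.1 at each of these 3 lengths). At 25, 26 and 28 nt the mature mean was also the lower one, without overlap of the groups. The groups overlapped at 31 nt, with 0.0776% ± 0.00745 in mature testis against 0.0738% ± 0.0287 in immature testis (exact permutation p = 1), and at 32 nt, with 0.0809% ± 0.0165 and 0.104% ± 0.0211 (exact permutation p = 0.2).

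Uridine stood first in most GC-rich reads. It was the first base of 82.9%, 81.5% and 80.9% of GC-rich reads in the mature libraries and of 78.2%, 78.8% and 76.7% in the immature libraries. Its mean share over positions 2 to 25 was 15.1% ± 0.185 in mature testis against 15.6% ± 0.55 in immature testis. The rule limits A and U over the whole sequence, so this low share follows from it. The size of any excess over that share depends on the rule too, although the rule does not fix which position holds uridine. The share at position 1 exceeded that mean by 66.6 ± 0.879 percentage points in mature testis and by 62.3 ± 0.626 in immature testis (SD, n = 3 each), in 6 of 6 libraries (exact sign-flip permutation p = 0.031). The share at position 1 was 3.88 percentage points higher in mature than in immature testis (exact permutation p = 0.1), and this order turned when sequences of 1 read were left out, with 87.3% in mature testis against 89.0% in immature testis (p = 0.2 by the same exact test). Sequences of 65 to under 70% GC began with uridine in 79.6% ± 0.837 of mature reads against 68.4% ± 4.1 of immature reads, less often than GC-rich reads in 6 of 6 libraries (mean difference 5.82 percentage points, exact sign-flip permutation p = 0.031). Against all other sequences of the table, which began with uridine in 89.8% ± 0.612 of mature reads and 75.5% ± 1.91 of immature reads, GC-rich reads were higher in 2 libraries and lower in 4 (mean difference -2.79 percentage points, exact sign-flip permutation p = 0.281).

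Of the other first bases, cytosine was the most frequent. It began 11.6% ± 1.19 of GC-rich reads in mature testis against 14.5% ± 0.923 in immature testis, guanosine 5.29% ± 0.426 and 5.16% ± 1.02, and adenosine 1.33% ± 0.0896 and 2.49% ± 0.378 (SD, n = 3 each). As shares of the whole pool, each of the 4 classes of first base was smaller in mature testis. The immature mean was 2.08 times the mature mean for uridine, 2.20 times for guanosine, 2.72 times for cytosine and 4.10 times for adenosine (exact permutation p = 0.1 for each). The last base was cytosine in 55.3% ± 2.36 of mature and 50.8% ± 1.86 of immature GC-rich reads, while cytosine made up on average 35.9% ± 0.169 and 36.5% ± 0.239 of positions 2 to 24. In the rest of the table cytosine ended 30.4% ± 0.866 of mature reads against 32.99% ± 2.7 of immature reads. The rule favours ends of G or C, since a last base of A or U lowers the GC content.

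The features by which ping-pong is usually measured, adenine at position 10 and the 10 nt overlap, exceeded their own backgrounds in both groups. Adenine stood at position 10 in 18.3% ± 1.95 of mature and 15.7% ± 1.91 of immature GC-rich reads, where the means were 11.6% ± 0.294 and 10.9% ± 0.51 over positions 2 to 9 and 11 to 25 (SD, n = 3 each). The excess was 6.68 ± 2.03 percentage points in mature testis against 4.84 ± 1.64 in immature testis, above 0 in 6 of 6 libraries (exact sign-flip permutation p = 0.031), and the groups overlapped (exact permutation p = 0.5). Among GC-rich reads without uridine at position 1, adenine at position 10 reached 30.5% ± 1.79 in mature testis against 23.1% ± 3.06 in immature testis, while the mean of the other positions was 12.5% ± 0.522 and 12.3% ± 0.248. A read was counted as paired when its first 10 bases were the reverse complement of the first 10 bases of another sequence in its library. This held for 35.4% ± 0.789 of GC-rich reads in mature testis against 34.2% ± 2.56 in immature testis. With the 10-base window of the read shifted by 1 to 5 bases, the mean share was 22.4% ± 0.918 and 19.6% ± 1.39. The excess over the shifted windows was 12.98 ± 1.67 percentage points in mature testis against 14.5 ± 1.21 in immature testis, with overlapping groups (exact permutation p = 0.3). A match of 10 bases can arise without a shared origin. The unshifted window holds position 1, which was mostly uridine, and the shifted windows leave it out. The windows thus differ in base composition, and the part of this in the excess was not tested.

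GC-rich sequences of mature testis held fewer CG dinucleotides. A GC-rich read carried 1.61, 1.68 and 1.57 CG in the mature libraries and 2.00, 1.95 and 1.95 in the immature libraries, and the groups did not overlap. The means were 1.62 ± 0.0558 in mature testis against 1.97 ± 0.03 in immature testis (SD, n = 3 each, exact permutation p = 0.1). Reads with at least 3 CG made up 16.6% ± 1.32 of GC-rich reads in mature testis against 27.8% ± 0.924 in immature testis, and reads without CG made up 10.9% ± 1.34 and 5.98% ± 0.487. CG was also set against the number expected from the C and G of each sequence. Observed CG was 0.461 ± 0.0147 of the expected number in mature testis against 0.574 ± 0.00642 in immature testis (exact permutation p = 0.1). Counting each distinct sequence of a library a single time gave 0.467 ± 0.00656 and 0.551 ± 0.00684.

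The difference in CG was also present within classes of length, first base and abundance. Within 25 to 28 nt the ratio of observed to expected CG was 0.535 ± 0.0119 in mature testis against 0.592 ± 0.0035 in immature testis, and within 29 to 32 nt it was 0.409 ± 0.0165 and 0.529 ± 0.0193 (SD, n = 3 each, exact permutation p = 0.1 for each). For sequences with uridine at position 1 it was 0.473 ± 0.0167 in mature testis against 0.594 ± 0.00916 in immature testis. Sequences of 1 read gave 0.459 ± 0.00691 and 0.531 ± 0.00697, and those of 2 or more reads 0.463 ± 0.0236 and 0.671 ± 0.00847. The same order held outside the GC-rich sequences, with 0.463 ± 0.00857 and 0.519 ± 0.0125 at 65 to under 70% GC and 0.386 ± 0.00913 and 0.429 ± 0.00562 at 60 to under 65%. Over all sequences that were not GC-rich, the ratio by reads was 0.242 ± 0.000645 in mature testis against 0.319 ± 0.0145 in immature testis. By distinct sequences it was 0.228 ± 0.00208 and 0.253 ± 0.00618. The ratio of GC-rich reads minus that of the band just below them was -0.00142 ± 0.00621 in mature testis, within the spread around 0, against 0.0547 ± 0.0189 in immature testis (exact permutation p = 0.1 between the groups). With each distinct sequence of a library counted a single time, the GC-rich ratio exceeded that of the band in 6 of 6 libraries, by 0.0459 ± 0.00408 in mature testis and by 0.0748 ± 0.00618 in immature testis (exact permutation p = 0.1 between the groups).

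Sorted by their number of CG, GC-rich sequences showed a wider ratio between the groups with each further CG up to 4. The 1290 sequences without CG made up 0.00959% ± 0.00117 of the mature pool and 0.0115% ± 0.00264 of the immature pool, and the groups overlapped (exact permutation p = 0.4). For the 4409 sequences with 1 CG the immature mean was 1.54 times the mature mean, for the 4995 with 2 CG 2.43 times and for the 2325 with 3 CG 3.48 times. For the 474 with 4 CG it was 5.10 times, with shares of 0.0019% ± 0.000298 in mature testis against 0.00967% ± 0.00348 in immature testis. The 44 sequences with 5 or more CG stood at 3.63 times (exact permutation p = 0.1 for each class from 1 CG up). The most abundant sequence with 5 CG, chosen after its values were seen, had 5, 7 and 4 reads in the mature libraries and 9, 11 and 3 reads in the immature libraries, or 1.27 ± 0.432 and 4.42 ± 2.24 CPM (reads per 1000000 reads of the table, SD, n = 3). It is 77.8% GC and is shown for its density of CG, again in capitals:
uniq_4356153: taccCGgcCGtCGcCGgcagtCGgagc

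Runs of one base and the balance of C and G also differed. GGGG occurred in 24.3% ± 1.21 of GC-rich reads in mature testis against 18.2% ± 0.871 in immature testis, and CCCC in 30.1% ± 1.38 and 21.9% ± 0.722 (SD, n = 3 each, exact permutation p = 0.1 for each, given strand only). Over distinct sequences, GGGG was found in 20.6% of the GC-rich sequences and 3.70% of the table, and CCCC in 26.2% and 3.27%. The rule selects for G and C, so it favours such runs and also the pattern of 4 runs of G given below. More C than G was found in 42.7% ± 0.585 of mature and 48.7% ± 0.205 of immature GC-rich reads (exact permutation p = 0.1), but with each distinct sequence counted a single time the shares were 46.3% ± 1.23 and 47.2% ± 0.984 (exact permutation p = 0.5). A pattern of 4 runs of at least 3 G with 1 to 7 bases between them, as in a G-quadruplex, was found in 23 GC-rich sequences (0.170%), of 71 such sequences in the table. Their share of GC-rich reads was 0.103% ± 0.107 in mature testis against 0.305% ± 0.122 in immature testis (exact permutation p = 0.2). Tandem copies of a short unit were rare: 18 GC-rich sequences (0.133%) held at least 4 copies of a 3-base unit, 5 copies of a 2-base unit or a run of 10 equal bases, against 0.147% of the table.

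Many GC-rich sequences belonged to sets that overlap in sequence. Sharing of the first 20 bases placed the 13537 sequences in 10652 families, of which 9241 had 1 sequence and 175 had 5 or more. Their first 24 bases were shared with another sequence of the table in 41.7% of the GC-rich sequences, in 45.6% of those of 65 to under 70% GC and in 53.5% of the table. When GC-rich sequences were joined wherever they shared 16 bases on the same strand, 6381 (47.1%) stayed alone. The largest group so formed, chosen after its values were seen, had 257 sequences and 878 reads, which was 4.23% of the GC-rich reads, and uniq_327586 led it. It held 14.3, 19.3 and 4.61 CPM in the mature libraries and 192, 117 and 123 CPM in the immature libraries. The means were 12.7 ± 7.48 CPM in mature testis against 144 ± 42.0 CPM in immature testis (SD, n = 3 each, exact permutation p = 0.1). As a share of GC-rich reads the group made up 1.45% ± 0.87 in mature testis against 7.48% ± 1.22 in immature testis. Without it, GC-rich sequences made up 0.0867% ± 0.00267 of mature reads against 0.178% ± 0.0391 of immature reads. Those with 2 or more reads then made up 0.0482% ± 0.00163 in mature testis against 0.0466% ± 0.0082 in immature testis (exact permutation p = 0.8), which reverses the order of these means. CG per GC-rich read without the group was 1.62 ± 0.0531 and 1.97 ± 0.0322.

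Of the 257 sequences in the leading group, 154 shared at least 16 bases with uniq_327586, and these held 706 of its 878 reads. The rest of the group was joined only through other members. Among the 154, the stretch of uniq_327586 occurred with several 5′ ends and in more than 1 version. The examples below were chosen after their values were seen, and the capital letter marks the base that differs from uniq_327586, with positions counted from 1 at the 5′ end of uniq_327586:
uniq_327586: tctgggcttctctccgggcctctgccggga
uniq_466156: tctgggcttctctccgggcctctgccggg
uniq_225208: tgggcttctctccgggcctctgccggga
uniq_228732: tctgggcttctGtccgggcctctgccggga
uniq_265567: tgggcttctGtccgggcctctgccggga
uniq_299688: tctGtccgggcctctgccgggagctc
uniq_5958585: tctgggcttctctccgggcctctgccgggG
uniq_228732, uniq_265567 and uniq_299688 carry the substitution C12G, and uniq_5958585 carries A30G at its last base. uniq_225208 begins 2 bases and uniq_299688 begins 8 bases downstream of the lead. uniq_327586 itself was the most abundant GC-rich sequence by the mean of the 2 group means. It had 3, 2 and 1 reads in the mature libraries and 84, 49 and 36 reads in the immature libraries. It averaged 0.480 ± 0.253 CPM in mature testis against 35.4 ± 22.0 CPM in immature testis (SD, n = 3), so that the mature mean was 0.0136 of the immature mean, or 0.0211 without immature replicate 1. uniq_228732, which differs from it only by C12G, had 1, 0 and 0 reads in the mature libraries and 11, 3 and 5 reads in the immature libraries. uniq_225208 had 5, 7 and 1 reads in the mature and 23, 28 and 10 reads in the immature libraries, or 1.05 ± 0.77 and 11.8 ± 4.9 CPM. Its C12G counterpart uniq_265567 had 8, 3 and 2 reads in the mature and 4, 4 and 2 reads in the immature libraries, or 1.04 ± 0.789 and 1.99 ± 0.802 CPM, and these groups overlapped. Of all sequences, 345 shared at least 16 bases with uniq_327586 on the same strand, with 1226 reads, of which 57.6% were of GC-rich sequences. On the opposite strand 10 sequences with 12 reads did so.

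Tests of single sequences were possible for few of them. The filter on low counts left 31788 sequences of the table, 14 of them GC-rich, and a sequence high in either group could pass it through that group alone. Counts were tested with edgeR's quasi-likelihood test, with p-values adjusted over all tested sequences by the Benjamini-Hochberg method and a call at an adjusted p under 0.05. Scaled by TMM factors, 1 of the 14 was called higher in mature testis, where 8.41% of all tested sequences were called, and 8 were called higher in immature testis, against 21.9% of all. On the scale of library totals, 6 of the 14 were called higher in mature testis, against 77.7% of all tested sequences, and 8 higher in immature testis, against 20.3%. With TMM factors and no filter beyond 6 reads in all, 294186 sequences were tested and 29.3% of them were called. Of the 316 GC-rich sequences then tested, 84 (26.6%) were called, near that background. In immature testis 23.4% were called higher, against 19.5% of all. In mature testis 3.16% were called higher, which lay below the 9.81% of all. TMM factors were 2.38 to 2.62 in the mature and 0.360 to 0.442 in the immature libraries. The median log2 difference of mature over immature testis of all tested sequences was 0.62 by TMM and 3.15 on library totals, and each direction is relative to that.

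Sequences called higher in immature testis were called so on both scales. For uniq_327586 the log2 difference of mature over immature testis was -8.72 ± 0.88 (SE) by TMM (edgeR adjusted p = 2.06e-21), while library totals gave -6.09 ± 0.81 (edgeR adjusted p = 8.36e-13). uniq_3693636 leads another overlapping group and had 13, 12 and 13 reads in the mature and 22, 30 and 18 reads in the immature libraries. Its levels were 2.99 ± 0.143 CPM in mature testis against 13.7 ± 1.96 CPM in immature testis (SD, n = 3), and its log2 difference was -4.78 ± 0.70 (SE) by TMM (edgeR adjusted p = 4.65e-11), while library totals gave -2.17 ± 0.60 (edgeR adjusted p = 0.000351). uniq_3935091 is the same sequence without its last base and stood at 1.41 ± 0.4 CPM in mature testis against 6.77 ± 1.07 CPM in immature testis. uniq_3749505, which holds 4 CG, had 4, 2 and 9 reads in the mature and 24, 23 and 15 reads in the immature libraries. Its levels were 1.15 ± 0.757 and 12.5 ± 4.24 CPM, and its log2 difference was -5.99 ± 0.74 (SE) by TMM (edgeR adjusted p = 3.98e-15). The mature mean of uniq_3749505 was 0.0919 of the immature mean, or 0.0586 without mature replicate 3. uniq_227990 had 5, 8 and 2 reads in the mature and 11, 13 and 30 reads in the immature libraries, and its mature mean was 0.107 of the immature mean, or 0.179 without immature replicate 3 (edgeR adjusted p = 1.53e-14 by TMM).

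The remaining calls in this direction were uniq_225208, described above (edgeR adjusted p = 2.91e-15 by TMM), and a pair chosen after their values were seen. uniq_9727342 was not read in the mature libraries and had 9, 11 and 5 reads in the immature libraries, 4.87 ± 1.55 CPM (SD, n = 3). A count of 0 allows up to 3 reads over the 3 mature libraries, or 0.236 CPM, so its level was at least 20.7-fold lower in mature testis (edgeR adjusted p = 2.36e-21 by TMM). uniq_6475415 had 0, 1 and 1 reads in the mature and 5, 12 and 6 reads in the immature libraries (edgeR adjusted p = 8.59e-20 by TMM). Both hold 3 CG:
uniq_9727342: tgcctgcCGgacaCGgaCGaccagggc
uniq_6475415: tcctccCGgggctaCGcctgtctgagCGc

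The GC-rich sequence called higher in mature testis by TMM was uniq_4829796. It had 26, 46 and 22 reads in the mature libraries, 7.51 ± 3.45 CPM (SD, n = 3), and was not read in the immature libraries, where a count of 0 over the 3 libraries allows 0.578 CPM. Its level was thus at least 12.99-fold higher in mature testis (edgeR adjusted p = 0.0113 by TMM and 1.26e-07 on library totals). A sequence that differs from it in the last base, uniq_4829806, chosen after its values were seen, had 24, 25 and 15 reads in the mature and 0, 2 and 0 reads in the immature libraries. It was a mature-high call on library totals (edgeR adjusted p = 8.9e-06) and not by TMM (edgeR adjusted p = 0.384). Side by side, with the last base in capitals, they read:
uniq_4829796: tgcaccaggacgtgaggctgggacggC
uniq_4829806: tgcaccaggacgtgaggctgggacggG
Around uniq_4829796 the table held 98 sequences that shared at least 16 bases with it on the same strand, with 124 ± 11.4 CPM in mature testis against 8.88 ± 7.45 CPM in immature testis, and 12.9% of their reads were of GC-rich sequences. Among the GC-rich sequences, 1381 fell into 626 sets that shared all but the last base.

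uniq_4549835, the most abundant GC-rich sequence of mature testis, had 91, 32 and 58 reads in the mature and 1, 3 and 3 reads in the immature libraries. All mature values lay above all immature ones, at 14.2 ± 7.14 and 1.35 ± 0.667 CPM (SD, n = 3 each), a ratio of 10.5. It was called on library totals (log2 difference 3.36 ± 0.74 SE, edgeR adjusted p = 1e-05) and not by TMM (0.82 ± 0.77, edgeR adjusted p = 0.435). The others called higher in mature testis only on library totals, besides uniq_4829806, were uniq_3824982, uniq_3995581 and uniq_4967980, chosen after their values were seen. Their mature means were 5.13 to 5.97 CPM and their immature means 0.456 to 1.21 CPM. uniq_3824982 and uniq_4967980 share their first 30 bases and hold 1 CG each:
uniq_3824982: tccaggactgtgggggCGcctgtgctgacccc
uniq_4967980: tccaggactgtgggggCGcctgtgctgacc

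The other abundant sequences did not pass the filter on low counts and were not tested. uniq_3612602 had 58, 6 and 28 reads in the mature and 0, 5 and 1 reads in the immature libraries, and its groups overlapped. The ratio of its mature to its immature mean was 7.69, but 4.07 without mature replicate 1 and 21.1 without immature replicate 2. uniq_8073271 had 0, 0 and 1 reads in the mature and 24, 13 and 1 reads in the immature libraries, so that its immature level rested on replicates 1 and 2. Among sequences with another first base, uniq_4596716, which begins with cytosine, had 4, 25 and 24 reads in the mature and 0, 2 and 0 reads in the immature libraries. Of the table's sequences, 88 shared at least 16 bases with its opposite strand, with 193, 130 and 69 reads in the mature and 7, 35 and 2 reads in the immature libraries, and 0 of the 88 were GC-rich. uniq_2578235, which begins with guanosine, had 2, 3 and 9 reads in the mature libraries and was not read in the immature ones. uniq_1245856, which begins with adenosine, had 0, 1 and 3 reads in the mature and 2, 0 and 7 reads in the immature libraries, and its groups overlapped.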

How the data were processed

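Small RNAs of 3 mature and 3 immature testes were sequenced from 3 µg of total RNA each, with products of 140 to 160 bp cut from a gel, per the labels' protocols. The deposited table gives whole-number read counts per distinct sequence of 25 to 32 nt, without normalization, per the file headers. The submitters' processing notes name Bowtie. Its version, the build of the genome and how piRNAs were picked were not given in the sources used here. All 6 columns were mapped to samples by their names. Shares and CPM refer to the table's own total, which is not the sequencing depth. The labels name no molecular identifiers, so intervals and floors (3 reads for a count of 0) reflect counting error only.

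GC content was computed for all sequences. Shares were compared by exact permutation tests (numpy 2.4.6), and counts by edgeR 4.0.16 in R 4.3.3 with filterByExpr defaults, over the whole table. Standard errors of log2 differences were derived from the F statistic. The overlap measure, the thinning formula and the edgeR test were tested on simulated data, and the permutation tests were not. The data simulated for edgeR held changes in either direction and no broad shift between the groups. Pairs of libraries of 1 group differed by more than counting noise (3.08 to 9.01 chi-square units a sequence). The members, lists and tests were chosen with earlier results of these data known. Named were the 10 members with the highest mean of group means, the called members with the highest such mean (up to 5 in each direction), the leads of the 3 families (same first 20 bases) with the most reads, and the leading member of each first base. Alternatives were GC limits of 65% and 75%, other weights, filters and scalings, DESeq2 1.42.0, a replicate block and leaving out each library. No genome was used, so no position or annotation is given.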

Additional observations from a re-analysis of the deposited data

How the results depend on the processing

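The direction of the differences between the groups in the share of GC-rich reads, in length and in GGGG kept under every alternative run for them, and the share ran from -0.128 to -0.0862 percentage points (mature minus immature) when 1 library was left out. Differences in other measures turned, and they are given here as mature minus immature. Counting each distinct sequence a single time turned the difference in the excess of adenine at position 10 to -0.418 percentage points. A GC limit of 65% turned it to -4.64. That limit also turned the 10 nt excess to 0.217, the share of the 10 most abundant members to -3.35 (1.51 as reported) and the share with more C than G to 0.0425 percentage points. A limit of 75% turned the 10 nt excess to 2.93 and the share with more C than G to 1.23. Leaving out sequences of 1 read turned uridine at position 1 to -1.67, its excess over other positions to -0.284, the 10 nt excess to 4.54, the 10 most abundant members to -6.38 and the share of distinct sequences to 0.00293 percentage points; the cause was not tested.

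Over the 6 libraries, the excess of uridine at position 1 ran from 63.9 to 65.03 and that of adenine at position 10 from 5.11 to 6.32 when 1 library was left out, where 5 libraries cannot give a sign-flip p under 0.05. Called GC-rich sequences numbered 9 of 14 tested as reported, against 30.4% of all sequences tested. Leaving out 1 library gave 10 to 15 of 17 to 30 tested (9 to 14 higher in immature testis and 1 in mature testis), against 22.4% to 38.6% of all. Of all sequences then tested, 17.3% to 30.8% were called higher in immature testis and 3.35% to 11.7% in mature testis. Library totals gave 14 of 14 (6 higher in mature testis), against 98.1% of all (77.7% higher in mature testis). Upper quartile factors gave 12 of 14 (4 higher in mature testis), against 64.9% of all (43.5% higher in mature testis). No filter beyond 6 reads gave 84 of 316 (10 higher in mature and 74 in immature testis), against 29.3% of all (9.81% and 19.5%). At least 10 CPM in 3 libraries gave 2 of 2 (0 and 2, with 2 at an unadjusted edgeR p under 0.05), against 23.7% (4.61% and 19.1%). A GC limit of 65% gave 81 of 175 (7 and 74), against 30.4% of all (8.41% and 21.9%). One of 75% gave 1 of 1 (0 and 1, with 1 at an unadjusted edgeR p under 0.05), against the same 30.4%. DESeq2 gave 9 of 14 (1 and 8), against 34.5% of all (12.7% and 21.8%). For uniq_4829796 the adjusted p ran from 1.26e-07 to 0.0467 over its 11 alternatives, and for uniq_4549835 from 1e-05 to 0.736.

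Libraries of the same number did not deviate together (correlations of -0.0674 to 0.0201). With so few libraries this cannot exclude that the numbers pair samples. With the replicate block edgeR called 9 of 14 GC-rich sequences (1 higher in mature and 8 in immature testis), against 23.5% of all (2.18% and 21.4%). Paired by number, the difference in the share of GC-rich reads was -0.105 percentage points (paired exact permutation p = 0.25, the smallest that 3 pairs give). The share of the 10 most abundant members was not run with distinct sequences. With 85.6% of the GC-rich sequences read a single time, depth limits what can be said of any 1 of them.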
